A study of Mus musculus with 288 samples.

Results

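Livers of old mice given a restricted nightly meal were compared with livers of old mice fed ad libitum (AL). The comparison took 48 of the 288 liver RNA-seq libraries of the study, 24 of the CR-night-2h group and 24 of the AL group, all from 19 months of age, and matched them by hour of collection. The study followed caloric restriction (CR) given at different times of day and profiled the liver in 6 feeding groups at 6 and 19 months. All mice were male C57BL/6J, were housed singly with a running wheel from 8 weeks of age and had 6 weeks of baseline ad libitum feeding. An automated feeder delivered 300-mg pellets of a purified diet. AL mice had the pellets at all times, whereas CR-night-2h mice received a ration at the start of the dark phase and ate it within 2 h. The 4 other CR groups of the study received the same ration on other schedules. CR-day-2h mice received it at the start of the day and also ate it within 2 h. CR-night-12h and CR-day-12h mice had it spread over 12 h of the night or day, and CR-spread mice over 24 h. The ration was set to 70% of ad libitum intake early in life and was kept at that amount; by the study's text AL mice ate more after their first year, so the restriction relative to AL was deeper at 19 months. In each group 2 mice, called A and B, were collected every 4 h from hour 0 to hour 44, so that each of the 6 circadian hours (hour modulo 24) held 4 mice per group. By the labels lights were on for 12 h and off for 12 h, by the study's text the mice were collected in constant darkness, and the labels do not define hour 0. Strain, sex, housing and diet were the same in both groups, and the labels give no batch.

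The liver takes up fatty acids and stores what it does not burn or export as triglyceride in lipid droplets, which are coated by perilipins and enlarged by CIDE proteins. Between meals it turns to fatty acid oxidation, to gluconeogenesis and to the breakdown of amino acids, whose nitrogen leaves through the urea cycle. Its transcripts follow a daily rhythm set by a cell-autonomous clock and by the time of feeding, and in male mice many of them depend on pulsatile growth hormone.

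Total counts ranged from 6078926 to 12585106 per library in AL (median 9382950) and from 6789034 to 9886955 in CR-night-2h (median 8350095). No 2 libraries were identical. The libraries of CR-night-2h mouse B at hour 16 (16B) and mouse B at hour 28 (28B) stood apart: their root mean square distances from the median of their group were 0.71 and 0.84 on the log2 scale, against 0.38 to 0.52 for the other 22 and 0.29 to 0.52 in AL. Each comparison was therefore also computed without these 2 libraries. Levels are given as CPM, the count of a gene relative to the library total after TMM scaling, which corrects for differences in RNA composition. All 9 hepatocyte markers with a row were expressed in all libraries, while 8 of 9 adipose and pancreas markers were below the filter on low counts. The summed hepatocyte markers ranged from 57916 to 131300 CPM in AL (median 89556) and from 116330 to 167950 CPM in the 22 CR-night-2h libraries (median 143520), but 16B and 28B held 96510 and 71535 CPM, within the AL range.

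Of 21869 genes, 11700 passed the filter and were tested, and 1302 of them (11.1%) differed in mean level between the groups. A gene was called where the edgeR quasi-likelihood test gave an adjusted p (padj, Benjamini-Hochberg over all genes tested) under 0.05 and a fold change of at least 1.5. In CR-night-2h 319 genes were higher (2.73%) and 983 were lower (8.4%), and the median log2 fold change (log2FC) of all genes was 0.02. These shares are the background for the counts of called members in each gene list below. Without 16B and 28B the test called 1580 genes, 374 higher and 1206 lower, of which 1268 were among the 1302. The direction of a log2FC is CR-night-2h over AL throughout, and "rose" and "fell" are used only for called genes.

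Ranked by log2FC among called genes that kept their direction in each replicate letter and each cycle, the 10 genes that fell most were Cidea, Mup17, Gprc5b, Cidec, mt-Atp6, Mup18, Ly6d, Osbpl3, Ubd and Hk2. Gprc5b, an orphan receptor of the retinoic acid-inducible family, ranged from 2.61 to 40.8 CPM in AL (median 26.4) and from 0.131 to 5.25 CPM in CR-night-2h (median 0.763), and without 28B at 5.25 CPM its CR-night-2h libraries lay below every AL library (log2FC = -4.53 ± 0.30 SE, padj = 1.71e-14). Osbpl3, an oxysterol-binding protein, had 10.1 to 96.2 CPM (median 58.4) in AL and 1.9 to 43.8 CPM (median 3.92) in CR-night-2h (log2FC = -3.27 ± 0.28 SE, padj = 1.06e-11). All 24 CR-night-2h libraries lay below the AL median for both genes, and the highest CR-night-2h library was 28B in each. Hk2, the hexokinase of muscle and fat, which healthy hepatocytes hardly express, ranged from 0.788 to 14.9 CPM in AL (median 7.2) and from 0 to 3.39 CPM in CR-night-2h (median 0.813) (log2FC = -2.85 ± 0.28 SE, padj = 4.54e-10). The 8 named genes that rose most were Nup62cl, Adgrf1, Hsd3b5, Lepr, Sult2a7, Srgap3, Cd163 and Cyp2c54; the predicted gene models Gm10801 and Gm10800 ranked above them. Nup62cl, a relative of a nuclear pore protein, ranged from 0 to 4.06 CPM in AL (median 0.711) and from 0.896 to 14.4 CPM in CR-night-2h (median 6.42), with every CR-night-2h library above the AL median (log2FC = 2.98 ± 0.22 SE, padj = 3.62e-13). Adgrf1, an adhesion G protein-coupled receptor, ranged from 0.149 to 6.91 CPM in AL (median 0.586) and from 0.344 to 26 CPM in CR-night-2h (median 6.55) (log2FC = 2.66 ± 0.39 SE, padj = 8.81e-07), and 16B at 0.344 CPM was its lowest CR-night-2h library. mt-Atp6, a mitochondrially encoded subunit of ATP synthase, spread from 0 to 2199.9 CPM in AL and from 0 to 668 CPM in CR-night-2h, so its groups overlapped over most of their range (log2FC = -4.11 ± 1.14 SE, padj = 0.00286).

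**Figure D1:**
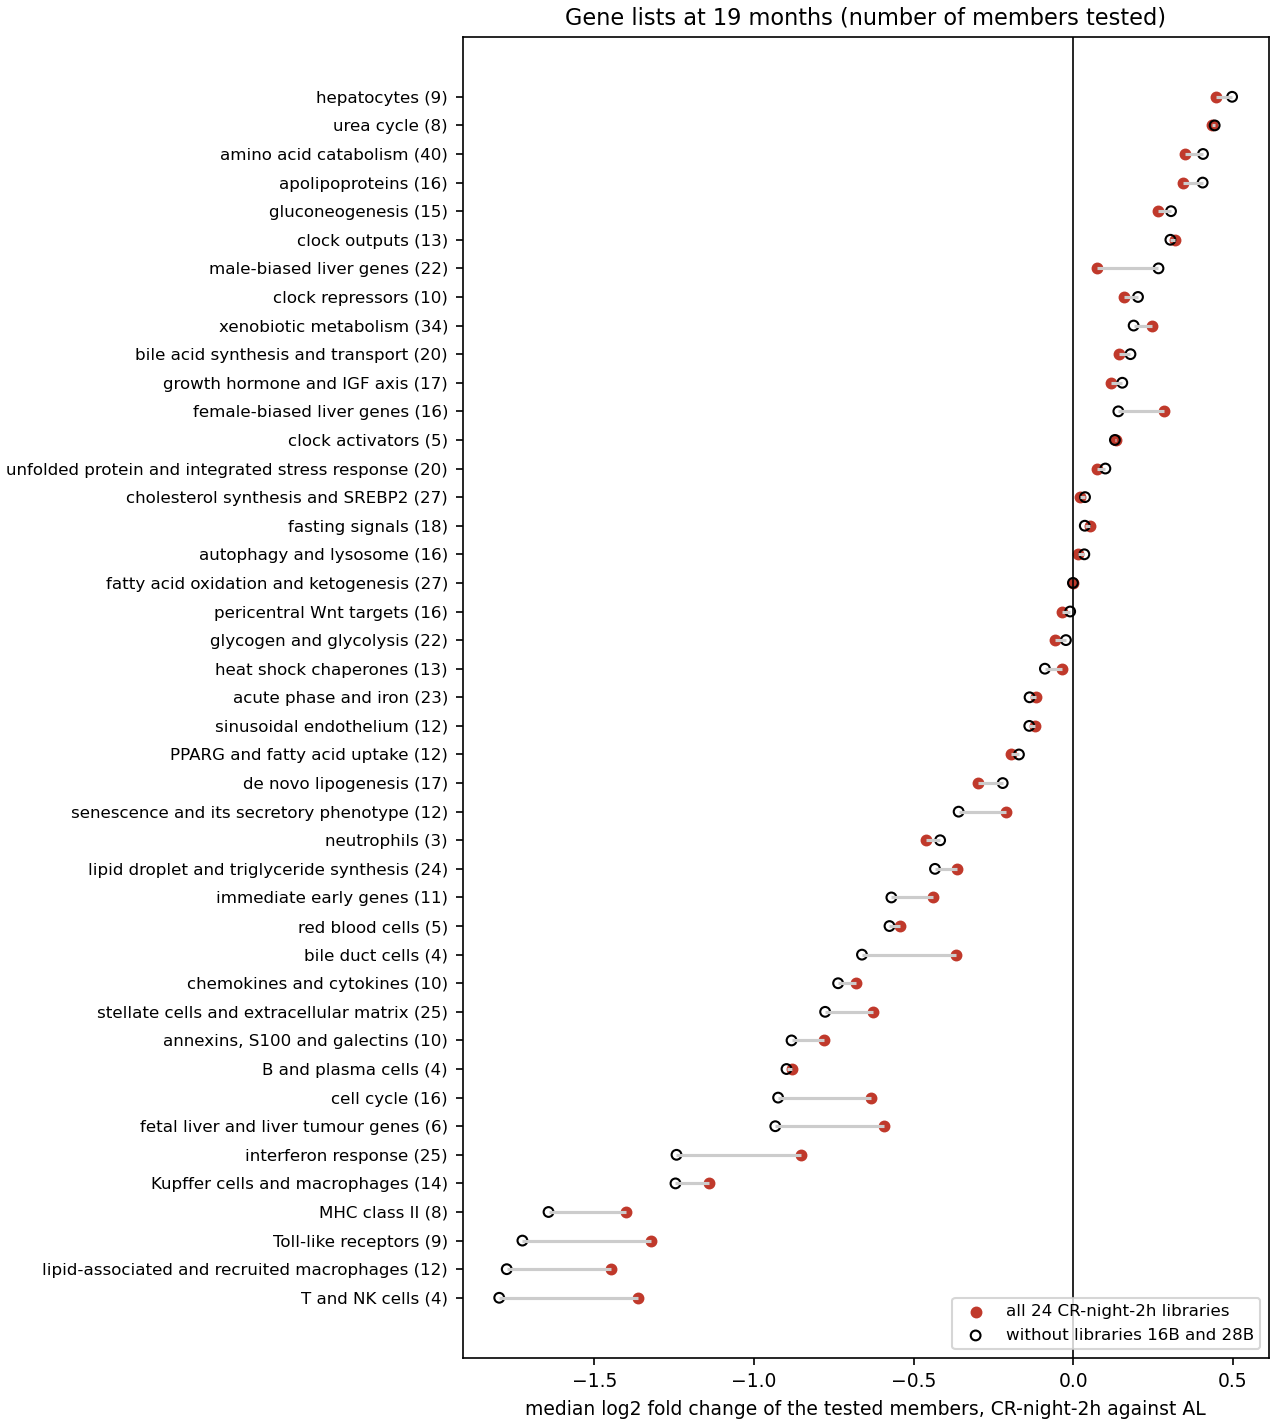
Median log2 fold change of CR-night-2h against AL at 19 months for each gene list, with the number of members tested in brackets; filled points use all 24 CR-night-2h libraries and open points leave out 16B and 28B. Hepatocyte markers (0.45), the urea cycle (0.44) and amino acid catabolism (0.35) lay to the right of 0, and MHC class II (-1.40) and lipid-associated macrophages (-1.45) to the left.

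Of 24 genes of the lipid droplet and of triglyceride synthesis, all tested, 8 fell in CR-night-2h, none rose and 16 were not called (edgeR, median log2FC -0.37 against 0.02 over all genes, of which 8.4% fell): Cidea, Cidec, Mogat1, Fitm1, Plin2, Plin4, Gpat3 and Gpam. Cidea and Cidec encode the CIDE proteins that fuse lipid droplets. Cidea had 1.24 to 83.2 CPM (median 15.4) in AL with 5030 counts in all, whereas CR-night-2h had 7 counts in all and 19 of its 24 libraries had none. The pooled level was 575 times higher in AL (95% counting interval 279 to 1432), the groups did not overlap, and padj was 1.01e-15. Cidec ranged from 2.76 to 115 CPM in AL (median 35.1) and from 0 to 13.4 CPM in CR-night-2h (median 0.971) (log2FC = -4.37 ± 0.38 SE, padj = 1.65e-11); the highest CR-night-2h library was 28B, and the other 23 did not exceed 5.75 CPM. In the mouse annotation GENCODE M21 (GRCm38) Cidec spans chr6:113424634-113435760 on the minus strand.

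Mogat1, a monoacylglycerol acyltransferase that is raised in fatty liver, ranged from 0.628 to 7.8 CPM in AL (median 5.61) and from 0 to 0.789 CPM in CR-night-2h (median 0.34), and all 24 CR-night-2h libraries lay below the AL median (log2FC = -3.94 ± 0.30 SE, padj = 1.04e-12). Fitm1, which helps partition fat into droplets, ranged from 8.59 to 31.9 CPM in AL (median 17.2) and from 1.18 to 13 CPM in CR-night-2h (median 4.73) (log2FC = -1.82 ± 0.17 SE, padj = 7.9e-11). The perilipin Plin4 had 4.78 to 114 CPM (median 38.7) in AL and 2.18 to 114 CPM (median 6.83) in CR-night-2h (log2FC = -2.17 ± 0.30 SE, padj = 4.3e-07), with 3 CR-night-2h libraries above the AL median. Plin2, the perilipin found on most hepatocyte droplets, fell less (log2FC = -0.62 ± 0.10 SE, padj = 6.75e-06), and 22 of 24 libraries lay below the AL median. Gpam, the mitochondrial enzyme of the first step of triglyceride synthesis, had log2FC -0.83, and Gpat3, its counterpart of the endoplasmic reticulum, -0.62. The enzymes of the last step did not pass the fold threshold, with log2FC 0.26 for Dgat1 and 0.22 for Dgat2, and neither did the lipase gene Pnpla2 (0.15).

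**Figure D2:**
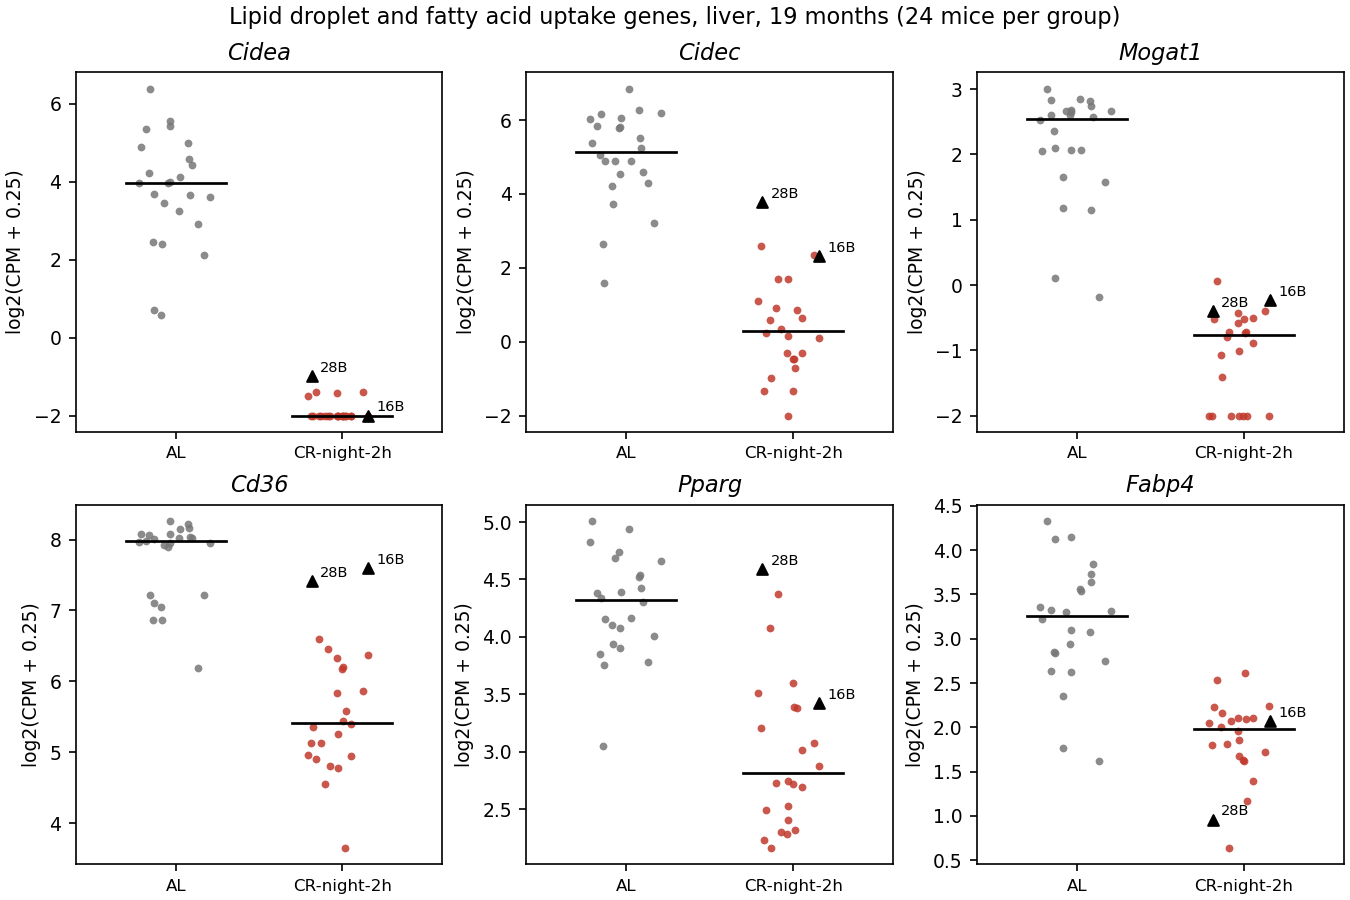
Level of 6 lipid genes by mouse at 19 months as log2(CPM + 0.25), 24 mice per group, with the group median as a line; black triangles mark libraries 16B and 28B. Cidea was at 0 in 19 of 24 CR-night-2h mice. For Cd36 the 2 marked libraries were the highest of CR-night-2h, and the other 22 reached at most 96.7 CPM, which is above the lowest AL library.

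Genes under the fatty acid-sensing nuclear receptor PPARG and for fatty acid uptake numbered 12. Of these, 5 fell (Pparg, Cd36, Fabp2, Fabp4 and Lpl) and Fabp5 alone rose, with a list median of -0.20. Among all genes tested 8.4% were called lower and 2.73% higher. Pparg itself ranged from 8 to 32 CPM in AL (median 19.7) and from 4.23 to 23.8 CPM in CR-night-2h (median 6.77) (log2FC = -1.24 ± 0.14 SE, padj = 7.37e-09). Cd36, the fatty acid translocase of the cell surface (chr5:17781690-17888801, minus strand), ranged from 72.3 to 307 CPM in AL (median 251) and from 12.3 to 194 CPM in CR-night-2h (median 42.4) (log2FC = -2.03 ± 0.23 SE, padj = 5.75e-09). Its 24 CR-night-2h libraries lay below the AL median, and the 2 highest of them were 16B at 194 and 28B at 171 CPM. Without these 2 the log2FC was -2.26. Fabp4, the adipocyte fatty acid-binding protein, also a macrophage transcript, ranged from 2.83 to 19.9 CPM in AL (median 9.32) and from 1.31 to 5.88 CPM in CR-night-2h (median 3.69) (log2FC = -1.40 ± 0.14 SE, padj = 4.26e-10). Fabp2, the intestinal form, fell by a smaller amount (log2FC = -0.74 ± 0.09 SE, padj = 1.29e-08), again with all 24 libraries below the AL median. Fabp5 had 9.83 to 44.7 CPM (median 22.8) in AL and 2.6 to 148 CPM (median 64.6) in CR-night-2h (log2FC = 1.41 ± 0.27 SE, padj = 5.93e-05), and 16B and 28B, at 5.59 and 6.26 CPM, were among its 3 libraries below the AL median.

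Of 17 de novo lipogenesis genes 4 fell (Fasn, Scd2, Fads2 and Thrsp) and none rose, with a median of -0.30, where 8.4% of all genes fell. Fads2, the delta-6 desaturase, ranged from 444 to 1634 CPM in AL (median 929) and from 301 to 998 CPM in CR-night-2h (median 437) (log2FC = -0.85 ± 0.10 SE, padj = 3e-08). Scd2, a stearoyl-CoA desaturase that adult mouse liver expresses weakly, ranged from 7.79 to 77.5 CPM in AL (median 28.6) and from 2.29 to 61.2 CPM in CR-night-2h (median 6.83) (log2FC = -2.01 ± 0.30 SE, padj = 9.12e-07). Its values of 22.3 CPM in 16B and 61.2 CPM in 28B were above the other 22, which reached 17. Fatty acid synthase (Fasn) covered 333 to 6290.4 CPM in CR-night-2h, a range that held that of AL (589 to 4639), and its mean was lower (log2FC = -0.78 ± 0.20 SE, padj = 0.0014). Of 27 cholesterol synthesis genes, only Tm7sf2, a sterol reductase, rose (log2FC = 0.59 ± 0.11 SE, padj = 4.23e-05), none fell, and the list median was 0.02, as for all genes.

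Fatty acid oxidation and ketogenesis split. Of 27 genes 5 rose and 3 fell, with a median of 0.00. Those that rose were the acyl-CoA thioesterase genes Acot1 and Acot3 and the omega-hydroxylase genes Cyp4a10, Cyp4a14 and Cyp4a31, and those that fell were Vnn1, Acaa1b and Acot2; without 16B and 28B Cyp4a10 and Cyp4a31 were not called, so that 3 rose and 3 fell. Vnn1, a pantetheinase and a target of PPARA, ranged from 74.8 to 202 CPM in AL (median 156) and from 20.7 to 114 CPM in CR-night-2h (median 43.5), with all 24 libraries below the AL median (log2FC = -1.64 ± 0.15 SE, padj = 2.67e-11). Acaa1b, a peroxisomal thiolase, had 275 to 949.8 CPM (median 601) in AL and 221 to 532 CPM (median 343) in CR-night-2h (log2FC = -0.78 ± 0.09 SE, padj = 1.27e-08). Acadvl, a mitochondrial acyl-CoA dehydrogenase, was higher by less than 1.5-fold (log2FC = 0.34 ± 0.04 SE, padj = 1.38e-07). Cyp4a14 ranged from 108 to 923 CPM in AL (median 609) and from 176 to 2737 CPM in CR-night-2h (median 1210.2) (log2FC = 1.08 ± 0.24 SE, padj = 0.000291). The Cyp4a genes are near-identical copies, so reads may be split among them. Of 18 fasting-signal genes, Irs2, an adaptor of the insulin receptor that fasting raises, rose (log2FC = 0.98 ± 0.17 SE, padj = 9.65e-06) and 21 of 24 libraries lay above the AL median. The cell-cycle inhibitor gene Cdkn1a (log2FC = -1.19 ± 0.31 SE, padj = 0.00142) and the hormone gene Fgf21 (log2FC = -0.85 ± 0.28 SE, padj = 0.0107) fell.

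Among the genes for making glucose, for degrading amino acids and for disposing of nitrogen as urea, a minority was called, mostly higher in CR-night-2h. Of 15 gluconeogenic genes 5 rose (Pck1, Slc37a4, Tat, Sds and Got1), none fell and 10 were not called, with a median of 0.26 and 2.73% of all genes called higher. By direction alone, 10 members had a log2FC above 0 and 5 below. The member with the smallest p, the alanine aminotransferase gene Gpt2, was not called and lay lower in CR-night-2h. Its medians at 19 months were 405 CPM in AL and 283 CPM in CR-night-2h in the fit of both ages. Slc37a4, which carries glucose 6-phosphate into the endoplasmic reticulum, ranged from 26.9 to 103 CPM in AL (median 49.8) and from 21 to 139.8 CPM in CR-night-2h (median 83.1) (log2FC = 0.63 ± 0.10 SE, padj = 2.38e-06). Got1, cytosolic aspartate aminotransferase, had 64.1 to 206 CPM (median 129.7) in AL and 44.5 to 744 CPM (median 229.6) in CR-night-2h (log2FC = 0.80 ± 0.17 SE, padj = 0.000232). Library 28B was the lowest CR-night-2h library for both genes, at 21 and 44.5 CPM. Pck1, the rate-limiting enzyme, spread widely over the day and overlapped between groups (log2FC = 0.70 ± 0.25 SE, padj = 0.0193).

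Of 40 amino acid catabolism genes 12 rose and 1 fell (median 0.35); without 16B and 28B 14 rose and 1 fell. Hal, histidine ammonia-lyase, ranged from 92.3 to 279.6 CPM in AL (median 131) and from 47.5 to 589.6 CPM in CR-night-2h (median 299.9), and 23 of 24 libraries lay above the AL median (log2FC = 1.08 ± 0.15 SE, padj = 2.43e-07). The exception below it was 28B at 47.5 CPM. Amdhd1, which acts later in histidine breakdown, rose too (log2FC = 0.68 ± 0.09 SE, padj = 8.47e-08), as did Ivd of leucine breakdown (log2FC = 0.59 ± 0.08 SE, padj = 7.24e-08) and Pipox, which oxidises pipecolic acid and sarcosine (log2FC = 0.63 ± 0.08 SE, padj = 1.77e-07). The member that fell was Bhmt, betaine-homocysteine methyltransferase, which had 407 to 1724 CPM (median 780.4) in AL and 52.7 to 1018 CPM (median 423) in CR-night-2h (log2FC = -1.21 ± 0.22 SE, padj = 2.13e-05). In the urea cycle 3 of 8 genes rose, all 8 had a log2FC above 0, and the median was 0.44. Cps1, the mitochondrial entry enzyme, ranged from 1221 to 4595 CPM in AL (median 1822) and from 2379 to 5272 CPM in CR-night-2h (median 4195), with all 24 CR-night-2h libraries above the AL median (log2FC = 1.04 ± 0.11 SE, padj = 3.12e-09). Ass1 (log2FC = 0.69 ± 0.08 SE, padj = 2.95e-08) and Asl (log2FC = 0.64 ± 0.11 SE, padj = 1.12e-05), the 2 enzymes that build and split argininosuccinate, rose by smaller amounts.

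Secreted proteins of hepatocytes moved in both directions. Of 9 hepatocyte markers 3 rose and none fell (median 0.45). Albumin (Alb) ranged from 38948 to 103100 CPM in AL (median 66237) and from 54234 to 136400 CPM in CR-night-2h (median 110850) (log2FC = 0.73 ± 0.09 SE, padj = 1.73e-08), and 28B was its one CR-night-2h library below the AL median. Ahsg, fetuin A, rose, with all 24 libraries above the AL median (log2FC = 0.63 ± 0.08 SE, padj = 5.31e-08). Among 16 apolipoprotein and lipid transport genes Apom and Apoh rose and Apoa4 fell. Apom, an apolipoprotein of HDL that carries sphingosine 1-phosphate, ranged from 24.1 to 87 CPM in AL (median 46.6) and from 44.2 to 128 CPM in CR-night-2h (median 102) (log2FC = 1.0 ± 0.10 SE, padj = 5.72e-10). Apoa4 had 359 to 4012 CPM (median 2281) in AL and 361 to 2732 CPM (median 757) in CR-night-2h (log2FC = -1.44 ± 0.19 SE, padj = 1.89e-07). Of 23 acute phase and iron genes 5 rose and 8 fell, where 2.73% of all genes tested rose and 8.4% fell. The serum amyloid gene Saa2 ranged from 4.83 to 39.6 CPM in AL (median 21.4) and from 0.931 to 8.81 CPM in CR-night-2h (median 2.95) (log2FC = -2.63 ± 0.21 SE, padj = 1.63e-12) and its near-identical copy Saa1 gave log2FC -1.95. Hamp, hepcidin, which lowers iron export, ranged from 143 to 1475 CPM in AL (median 414) and from 564 to 2568 CPM in CR-night-2h (median 1619), and every CR-night-2h library lay above the AL median (log2FC = 1.73 ± 0.20 SE, padj = 9.78e-09). Hamp has a near-identical copy, so its reads may be split. Tfrc, the transferrin receptor, which imports iron, went the other way (log2FC = -1.0 ± 0.11 SE, padj = 5.71e-09). The 3 fibrinogen chain genes Fga, Fgb and Fgg rose, by 0.59, 0.62 and 0.68.

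For bile acids, 1 of 20 genes rose and 3 fell, where 2.73% of all genes tested were called higher and 8.4% lower. Without 16B and 28B 3 rose and 3 fell. Slc10a2, the apical sodium-dependent bile acid transporter, ranged from 26 to 76.3 CPM in AL (median 44.4) and from 3.11 to 32.6 CPM in CR-night-2h (median 12.8), with all 24 libraries below the AL median (log2FC = -2.0 ± 0.18 SE, padj = 5.24e-11). Abcc3, a basolateral exporter, also fell (log2FC = -0.75 ± 0.09 SE, padj = 1.51e-08), as did Cyp8b1 of cholic acid synthesis (log2FC -0.75), while the basolateral importer Slc10a1 rose (log2FC 0.83). Of 34 xenobiotic metabolism genes 8 rose and 3 fell, and without 16B and 28B 10 rose and 5 fell. Gstt2, a theta-class glutathione transferase, had 16.7 to 51.4 CPM (median 32.6) in AL and 26.4 to 134 CPM (median 53.1) in CR-night-2h (log2FC = 0.87 ± 0.09 SE, padj = 1.16e-09). Cyp2b10, a target of the nuclear receptor CAR, ranged from 0.126 to 2.23 CPM in AL (median 0.597) and from 0.237 to 17.3 CPM in CR-night-2h (median 2.61) (log2FC = 2.55 ± 0.38 SE, padj = 1.01e-06), and Cyp2c54 ranged from 7.81 to 151 CPM in AL (median 28.1) and from 30.6 to 288 CPM in CR-night-2h (median 179) (log2FC = 1.98 ± 0.34 SE, padj = 1.13e-05). Both belong to families of close paralogs, as does Sult2a7, so reads may be split among copies. Aldh1a1, retinal dehydrogenase, fell (log2FC = -0.67 ± 0.09 SE, padj = 5.71e-08). Of 16 pericentral Wnt targets 2 rose and 4 fell, and without 16B and 28B 3 rose and 3 fell. Notum, a feedback inhibitor of Wnt, rose, with every CR-night-2h library above the AL median (log2FC = 0.83 ± 0.10 SE, padj = 8.79e-09), while the ammonium transporter gene Rhbg fell (log2FC = -1.66 ± 0.22 SE, padj = 1.85e-07) and 16B and 28B held 6.54 and 3.64 CPM against at most 1.48 in the other 22. Glutamine synthetase (Glul) fell with all libraries (log2FC -0.59) and without 16B and 28B had a log2FC of -0.52, under the fold threshold.

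Along the growth hormone axis 5 of 17 genes rose and none fell: Lepr, Socs2, Igfbp2, Cish and Igfals. Without 16B and 28B 5 rose and 1 fell. With all libraries 13 members had a log2FC above 0 and 4 below. Over all genes tested, 2.73% were called higher and 8.4% lower. Igfbp7 went down, with medians of 114 CPM in AL and 70.1 CPM in CR-night-2h at 19 months in the fit of both ages. Lepr, the leptin receptor gene (chr4:101717404-101815352, plus strand), ranged from 1.74 to 39.6 CPM in AL (median 7.12) and from 1.86 to 116 CPM in CR-night-2h (median 48.1) (log2FC = 2.45 ± 0.33 SE, padj = 2.39e-07). Here 16B and 28B, at 2.84 and 1.86 CPM, were the 2 lowest CR-night-2h libraries and the other 22 held 26.2 to 116 CPM, all above the AL median. Igfbp2, an IGF-binding protein, ranged from 42.7 to 268 CPM in AL (median 83.1) and from 135 to 494 CPM in CR-night-2h (median 275), with every CR-night-2h library above the AL median (log2FC = 1.62 ± 0.18 SE, padj = 2.91e-09). Igfals, which stabilises circulating IGF1, rose (log2FC = 0.73 ± 0.11 SE, padj = 1.52e-06), and Igf1 itself was higher by less than 1.5-fold (log2FC = 0.34 ± 0.09 SE, padj = 0.00223). Socs2, an inhibitor induced by growth hormone, ranged from 2.57 to 27.3 CPM in AL (median 7.42) and from 2.63 to 73.7 CPM in CR-night-2h (median 25.3) (log2FC = 1.65 ± 0.26 SE, padj = 2.95e-06).

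Sex-biased liver genes did not move as 1 group. Of 27 male-biased genes 22 were tested, 2 rose and 5 fell, with a median of 0.07; without 16B and 28B 6 rose and 4 fell. Of 26 female-biased genes 16 were tested, 6 rose and 2 fell, with a median of 0.28. For all genes tested the shares were 2.73% called higher and 8.4% called lower. Hsd3b5, a male-biased hydroxysteroid dehydrogenase, ranged from 0 to 70.3 CPM in AL (median 0.345) and from 0.0846 to 204 CPM in CR-night-2h (median 15.1) (log2FC = 2.58 ± 0.89 SE, padj = 0.0152), and its CR-night-2h level ran from near 0 to above the highest AL library. Of 12 tested major urinary protein genes 8 fell, none rose and 4 were not called; without 16B and 28B 6 fell and 2 rose, Mup3 and Mup21. With all libraries Mup3 had 1219 to 8539 CPM (median 2040.4) in AL and 113 to 10173 CPM (median 4686) in CR-night-2h (padj = 0.0532), and Mup21 had medians of 90.8 and 218 CPM (padj = 0.201). Among those that fell, Mup17 (chr4:61591929-61595871, minus strand) ranged from 10.8 to 937 CPM in AL (median 39.3) and from 0 to 10.6 CPM in CR-night-2h (median 0.793), with 1 of 24 CR-night-2h libraries at 0 and no overlap between groups (log2FC = -5.48 ± 0.48 SE, padj = 2.27e-11), and Mup20 had log2FC -1.25. Mup18 had 1.36 to 39.1 CPM (median 4.07) in AL and 0 to 2.25 CPM (median 0.141) in CR-night-2h, with 9 of 24 libraries at 0 (log2FC = -3.97 ± 0.40 SE, padj = 5.72e-10). The Mup genes are a cluster of near-identical copies, so their single values are uncertain. Ntrk2, a neurotrophin receptor gene on the female-biased list, fell (log2FC = -1.03 ± 0.17 SE, padj = 8.25e-06).

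Most markers of resident and recruited macrophages fell in CR-night-2h. In whole liver, fewer cells of a type and less RNA per cell cannot be told apart. Of 14 Kupffer cell and macrophage markers 11 fell and 1 rose (median -1.14, with 8.4% of all genes called lower), and of 15 lipid-associated and recruited macrophage markers 12 were tested and 10 fell (median -1.45). The summed level of the lipid-associated list was 58.8 to 320 CPM in AL (median 174) and 47.2 to 118 CPM in the 22 CR-night-2h libraries (median 80.6). Library 16B held 160 CPM, and 28B held 894 CPM, above every AL library. Csf1r, the receptor for macrophage colony-stimulating factor, ranged from 19.1 to 113 CPM in AL (median 43) and from 8.16 to 52.9 CPM in CR-night-2h (median 14.8) (log2FC = -1.29 ± 0.18 SE, padj = 4.87e-07). Cd68 had 8.58 to 32.3 CPM (median 18.1) in AL and 1.88 to 21.9 CPM (median 5.49) in CR-night-2h (log2FC = -1.39 ± 0.20 SE, padj = 8.65e-07). For both genes the highest CR-night-2h library was 16B, at 52.9 and 21.9 CPM, and without 16B and 28B the log2FC values were -1.42 and -1.56. The complement genes C1qa (log2FC = -1.08 ± 0.16 SE, padj = 1.14e-06) and C1qb (log2FC = -1.25 ± 0.18 SE, padj = 9.35e-07), which macrophages make, fell as well. Lgals3 (log2FC = -1.41 ± 0.20 SE, padj = 5.57e-07), a galectin of activated macrophages, and Mmp12, the macrophage metalloelastase (log2FC = -2.56 ± 0.41 SE, padj = 3.7e-06), fell, each with 23 of 24 libraries below the AL median.

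Cd163, the macrophage scavenger receptor for haemoglobin, was the one macrophage marker that rose: it ranged from 0 to 12.7 CPM in AL (median 2.31) and from 0.677 to 21.4 CPM in CR-night-2h (median 8.97) (log2FC = 2.0 ± 0.34 SE, padj = 1.13e-05), and its one library below the AL median was 28B at 0.677 CPM. All 8 tested MHC class II genes of 10 fell (median -1.40), where 8.4% of all genes tested were called lower. Cd74, the invariant chain, ranged from 29.7 to 217 CPM in AL (median 127) and from 13.6 to 206 CPM in CR-night-2h (median 39.1) (log2FC = -1.48 ± 0.21 SE, padj = 6.5e-07), and Ciita, the master activator of the class, gave log2FC -1.62. The summed MHC class II level was 95.4 to 516 CPM in AL (median 312) and 42.6 to 203 CPM in the 22 CR-night-2h libraries (median 90.9), but 348 CPM in 16B and 540 CPM in 28B. Of 11 Toll-like receptor genes 9 were tested and 8 fell. Tlr12 ranged from 5.78 to 19.7 CPM in AL (median 11.4) and from 0.939 to 9.1 CPM in CR-night-2h (median 3.07), with all 24 libraries below the AL median (log2FC = -1.73 ± 0.13 SE, padj = 3.62e-13). Of 18 T and NK cell markers 4 were tested and 3 fell, among them Themis, a T cell signalling protein (log2FC = -3.44 ± 0.40 SE, padj = 9.05e-09). Of 6 B and plasma cell markers with a row 4 were tested and 3 fell, of 9 neutrophil markers 3 were tested and Csf3r alone fell, and of 10 tested cytokine and chemokine genes 5 fell, including Cxcl16 (log2FC = -0.86 ± 0.12 SE, padj = 3.84e-07) and Il1b (log2FC = -1.24 ± 0.19 SE, padj = 2.68e-06). Of 5 red blood cell markers 2 fell, the globin genes Hba-a2 (log2FC = -0.67 ± 0.21 SE, padj = 0.00851) and Hbb-bs (log2FC = -0.62 ± 0.19 SE, padj = 0.00767), which have near-identical copies, and all 5 had a log2FC below 0 (median -0.54). Their summed level was 100.2 to 470 CPM in AL (median 166) and 48.9 to 336 CPM in the 22 CR-night-2h libraries (median 116), with 157 CPM in 16B and 155 CPM in 28B. What part cell composition has in the results for other genes was not tested.

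**Figure D3:**
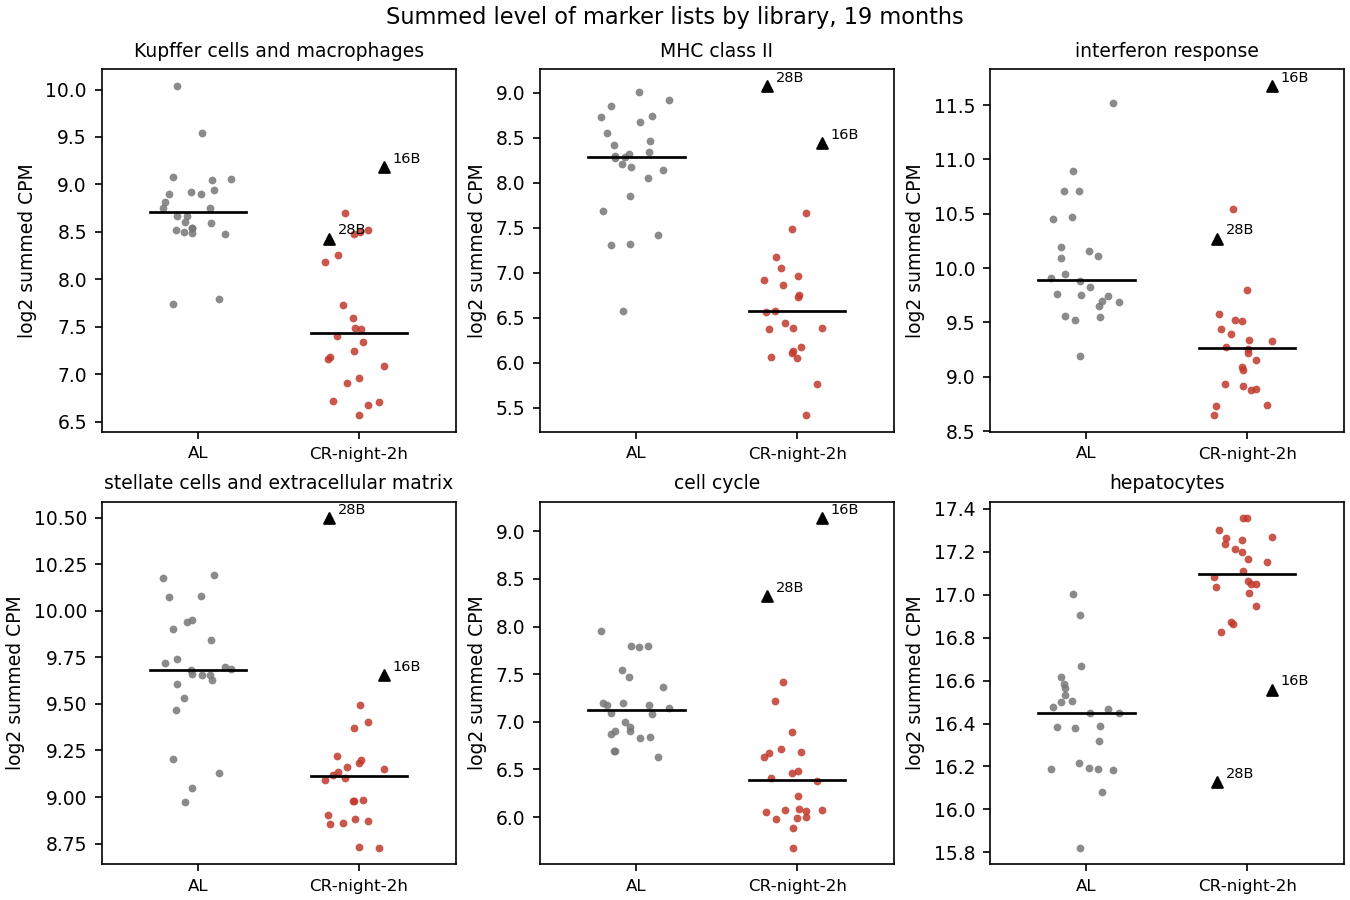
Summed CPM of 6 marker lists by library on a log2 axis at 19 months, 24 mice per group, with the group median as a line and libraries 16B and 28B as black triangles. The 2 triangles lay with or above AL for MHC class II and the cell cycle, and within AL for the hepatocyte markers, where the other 22 CR-night-2h libraries were mostly higher.

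Of 25 tested interferon response genes 16 fell and none rose (median -0.85), and without 16B and 28B 21 fell (median -1.24). The summed level of the list was 586 to 2940 CPM in AL (median 951), 400.1 to 1495 CPM in the 22 CR-night-2h libraries (median 602), 3275 CPM in 16B and 1236 CPM in 28B. Gbp2, a guanylate-binding protein induced by interferon gamma, had 4.5 to 27.4 CPM (median 12.2) in AL and 2.55 to 9.15 CPM in the 22 libraries (log2FC = -1.09 ± 0.22 SE, padj = 7.76e-05), and 34.3 CPM in 16B, above every AL library. Rsad2, the antiviral protein viperin, is given for its range over libraries: 6.97 to 116 CPM (median 13.3) in AL, 1.4 to 14.1 CPM in the 22 libraries, 328 CPM in 16B and 44.2 CPM in 28B. Its mean did not pass with all libraries (log2FC = -0.90 ± 0.41 SE, padj = 0.0687) and passed without the pair (log2FC = -1.44, padj = 1.91e-05). Ifit2 (log2FC = -1.26 ± 0.27 SE, padj = 0.000189) and the chemokine gene Cxcl9 (log2FC = -1.35 ± 0.26 SE, padj = 6.17e-05) fell in either case. The core of the interferon-stimulated response element, GAAANNGAAA, was searched on both strands in the 250 bases before each RefSeq gene start. It was found for 11 of 19 genes of the list with a promoter and in 978 of 32851 promoters overall (2.98%). The promoters of Gbp2 and Rsad2 show where it lies, 59 and 120 bases before the start (RefSeq, GRCm38.p6, 5′ to 3′ on the strand of the gene, the match in capitals, read as its reverse complement). Gbp2 lies at chr3:142620413-142620662 (plus strand) and Rsad2 at chr12:26456453-26456702 (minus strand).
Gbp2: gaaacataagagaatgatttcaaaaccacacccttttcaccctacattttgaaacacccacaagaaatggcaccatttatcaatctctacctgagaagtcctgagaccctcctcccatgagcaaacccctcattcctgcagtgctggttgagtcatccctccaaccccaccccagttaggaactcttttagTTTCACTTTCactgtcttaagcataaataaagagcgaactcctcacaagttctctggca
Rsad2: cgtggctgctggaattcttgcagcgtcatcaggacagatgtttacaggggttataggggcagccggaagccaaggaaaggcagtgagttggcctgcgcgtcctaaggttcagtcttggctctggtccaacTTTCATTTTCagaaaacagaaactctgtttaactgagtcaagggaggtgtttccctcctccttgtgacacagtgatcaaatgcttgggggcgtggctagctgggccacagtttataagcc

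Genes of the extracellular matrix, of cell division and of the membrane-binding annexins were counted next. Among all genes tested 8.4% were called lower with all libraries. Of 27 stellate cell and matrix genes 25 were tested and 14 fell, 18 without 16B and 28B, and none rose. Col1a1, a chain of type I collagen, had 1.76 to 45.8 CPM (median 18.6) in AL and 2.02 to 8.76 CPM in the 22 libraries, with 16.5 CPM in 16B and 60.0 CPM in 28B (log2FC = -1.95 ± 0.31 SE, padj = 2.93e-06). Col3a1 (log2FC = -1.41 ± 0.22 SE, padj = 1.77e-06) and Col4a1 (log2FC = -0.97 ± 0.16 SE, padj = 4.29e-06) showed 28B above every AL library in the same way. Of 22 cell cycle genes 16 were tested and 8 fell, 11 without the pair. Mki67, a marker of dividing cells, had 4.07 to 22.5 CPM (median 11.1) in AL, 0.382 to 4.87 CPM in the 22 libraries, 21.3 CPM in 16B and 36.5 CPM in 28B (log2FC = -1.86 ± 0.32 SE, padj = 1.28e-05). The replication licensing gene Mcm2 reached 16.5 CPM in 16B, above every AL library (log2FC = -1.18 ± 0.21 SE, padj = 1.4e-05). Of 12 tested genes of senescence and its secretory phenotype 5 fell, among them the stress cytokine gene Gdf15, with all 24 libraries below the AL median (log2FC = -1.67 ± 0.27 SE, padj = 4.31e-06).

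Of 10 tested annexin, S100 and galectin genes 6 fell. Lgals1, galectin 1, ranged from 25.9 to 126 CPM in AL (median 78.8) and from 7.55 to 44.1 CPM in CR-night-2h (median 13.1), with all 24 CR-night-2h libraries below the AL median (log2FC = -2.30 ± 0.19 SE, padj = 2.99e-12), and Anxa5 ranged from 77.8 to 301 CPM in AL (median 189) and from 40.6 to 273 CPM in CR-night-2h (median 65.9) (log2FC = -1.29 ± 0.16 SE, padj = 3.54e-08). S100a11 fell, with 23 of 24 libraries below the AL median (log2FC = -1.68 ± 0.22 SE, padj = 1.46e-07). Among 6 tested genes that fetal liver and liver tumours express, Ly6d, Sox4 and Cd24a fell. Ly6d, a surface protein of lymphoid precursors, had 2.01 to 62.3 CPM (median 24.6) in AL and 0.124 to 4.08 CPM in the 22 libraries, with 25.6 and 23.4 CPM in 16B and 28B (log2FC = -3.76 ± 0.54 SE, padj = 5.48e-07). Sox4 and Cd24a were highest in 28B, at 35.6 and 53.2 CPM, and that library also led the summed bile duct markers (78.4 CPM against 5.28 to 27.3 in AL). The ubiquitin-like gene Ubd fell overall (log2FC = -2.96 ± 0.65 SE, padj = 0.000271), though 16B and 28B held 20.6 and 24.9 CPM and the other 22 at most 1.9.

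Over all genes tested 2.73% were called higher and 8.4% lower, and a count of 1 in the next 3 lists is near those shares. Of 12 tested sinusoidal endothelial genes 1 fell, Lyve1, a hyaluronan receptor (log2FC = -0.85 ± 0.20 SE, padj = 0.000497), and the median was -0.12. Of 20 tested genes of the unfolded protein and integrated stress response Trib3 rose (log2FC 0.59; not called without 16B and 28B, log2FC 0.34) and Atf3 fell (log2FC = -1.11 ± 0.33 SE, padj = 0.00562), and of 22 glycogen and glycolysis genes Gyg, the primer of glycogen, fell (log2FC = -0.59 ± 0.12 SE, padj = 6.32e-05). None of 16 autophagy and lysosome genes and none of 13 tested heat shock chaperone genes passed the edgeR test of the mean with its fold threshold. Of 11 tested immediate early genes Jun (log2FC = -1.16 ± 0.22 SE, padj = 5.38e-05) and Klf6 (log2FC = -0.79 ± 0.20 SE, padj = 0.00139) fell, 16B and 28B being the 2 highest CR-night-2h libraries for both.

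For a minority of genes the difference depended on the time of day. Tested hour by hour in edgeR with 4 mice per group, 932 genes were called at circadian hour 0, 241 at hour 4, 990 at hour 8, 1795 at hour 12, 270 at hour 16 and 1939 at hour 20. Libraries 28B and 16B fall at hours 4 and 16, and without the pair the counts there were 941 and 533. An interaction of feeding with circadian hour was called for 643 genes (5.5%), of which 123 were also called in the mean; without the pair it was called for 476, of which 399 were among the 643. The 8 genes with the smallest p were Slc41a2, Actb, Shank2, Alas1, Map3k5, Fbxl20, Ethe1 and Dbp. Alas1, the rate-limiting enzyme of heme synthesis, had mean levels of 146, 133, 304, 885, 529 and 185 CPM in AL at circadian hours 0, 4, 8, 12, 16 and 20, and of 64.4, 142, 712, 943, 1262 and 127 CPM in CR-night-2h (interaction padj = 0.000901). It was higher in CR-night-2h at hours 8 and 16 (padj = 0.00434 and 0.00616) and lower at hour 0 (padj = 0.00721). Actb, cytoplasmic beta-actin, was lower in CR-night-2h at hours 0 to 12, with log2FC from -0.70 to -0.52 (padj = 0.00013 and 0.00469), and at hours 16 and 20 gave 0.27 and 0.06 (interaction padj = 0.000901). The heat shock chaperones, none of which was called in the mean, had 9 of 13 genes with an interaction. Hspa8 was lower in CR-night-2h at hour 0, at 318 against 761 CPM (padj = 0.00107), while at hour 16, its peak in both groups, the means were 1794 and 1576 CPM.

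Of the core clock genes, 4 of 5 activators and 10 of 10 repressors were rhythmic in each group, by the rule given with the rhythms. The clock is a loop in which ARNTL (BMAL1) with CLOCK or NPAS2 activates the Per, Cry, Nr1d and Ciart genes through E-boxes, and their products repress it. Of 5 activator genes none was called in the mean (edgeR; log2FC = 0.38 ± 0.16 SE, padj = 0.0424 for Arntl), and of 10 repressor genes Ciart alone rose (log2FC = 1.02 ± 0.21 SE, padj = 0.000139). Arntl averaged 41.5, 26.1, 2.89, 1.84, 15.4 and 35.6 CPM in AL at the 6 circadian hours and 51.2, 25.9, 1.1, 4.49, 32.7 and 46.6 CPM in CR-night-2h. CR-night-2h was lower at hour 8 and higher at hours 12 and 16 (padj = 0.0226, 0.00663 and 0.0124; interaction padj = 0.0105). Per2 averaged 22.6, 12.1, 29.2, 55.8, 81.7 and 35.5 CPM in AL and 8.51, 6.14, 33.2, 80, 111 and 40.6 CPM in CR-night-2h (interaction padj = 0.00743), lower at hour 0 in CR-night-2h (padj = 0.00348).

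Ciart averaged 0.394, 0.392, 8.11, 17.1, 2.24 and 0.416 CPM in AL and 0.263, 0.475, 32.7, 36.2, 1.89 and 0.915 CPM in CR-night-2h, with its difference at hours 8 and 12 (log2FC = 2.02 and 1.08, padj = 0.000132 and 0.00824). Cry1 averaged 26.9, 8.36, 4.79, 8.71, 29.1 and 37.1 CPM in AL and 26.2, 8.79, 5.17, 18.9, 48.4 and 54.4 CPM in CR-night-2h, and was higher in CR-night-2h at hours 12 and 16 (padj = 0.00031 and 0.0234). The other repressor genes had mean log2FC of 0.54 (Per1), -0.12 (Per2), 0.14 (Per3), 0.44 (Cry1), 0.34 (Cry2), 0.18 (Nr1d1), 0.13 (Nr1d2), -0.16 (Bhlhe40) and -0.02 (Bhlhe41), and the other activators -0.01 (Clock), 0.02 (Npas2) and 0.13 (Rora). The E-box CACGTG, which reads the same on both strands, was found in the 250 bases before the start of 4 of 8 repressor genes with a RefSeq promoter (Ciart, Cry1, Per1 and Bhlhe41), in none of 4 activator genes and in 1978 of 32851 promoters overall (6.02%). The promoters of Ciart, the repressor gene called in the mean, and of Cry1 are shown 5′ to 3′ on the strand of the gene (RefSeq, GRCm38.p6, E-box in capitals): Ciart, with 3 matches, at chr3:95882229-95882478 and Cry1, with 1, at chr10:85185055-85185304, both on the minus strand.
Ciart: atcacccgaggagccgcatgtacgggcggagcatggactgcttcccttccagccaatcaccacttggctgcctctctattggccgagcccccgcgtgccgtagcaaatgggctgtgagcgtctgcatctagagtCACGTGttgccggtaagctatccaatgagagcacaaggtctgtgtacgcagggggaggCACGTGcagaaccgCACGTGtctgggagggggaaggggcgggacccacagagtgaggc
Cry1: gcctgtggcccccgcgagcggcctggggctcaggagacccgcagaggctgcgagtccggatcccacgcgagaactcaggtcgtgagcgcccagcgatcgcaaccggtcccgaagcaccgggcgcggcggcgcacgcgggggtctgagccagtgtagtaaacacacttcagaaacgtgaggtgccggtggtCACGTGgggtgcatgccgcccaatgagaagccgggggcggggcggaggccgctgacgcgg

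**Figure D4:**
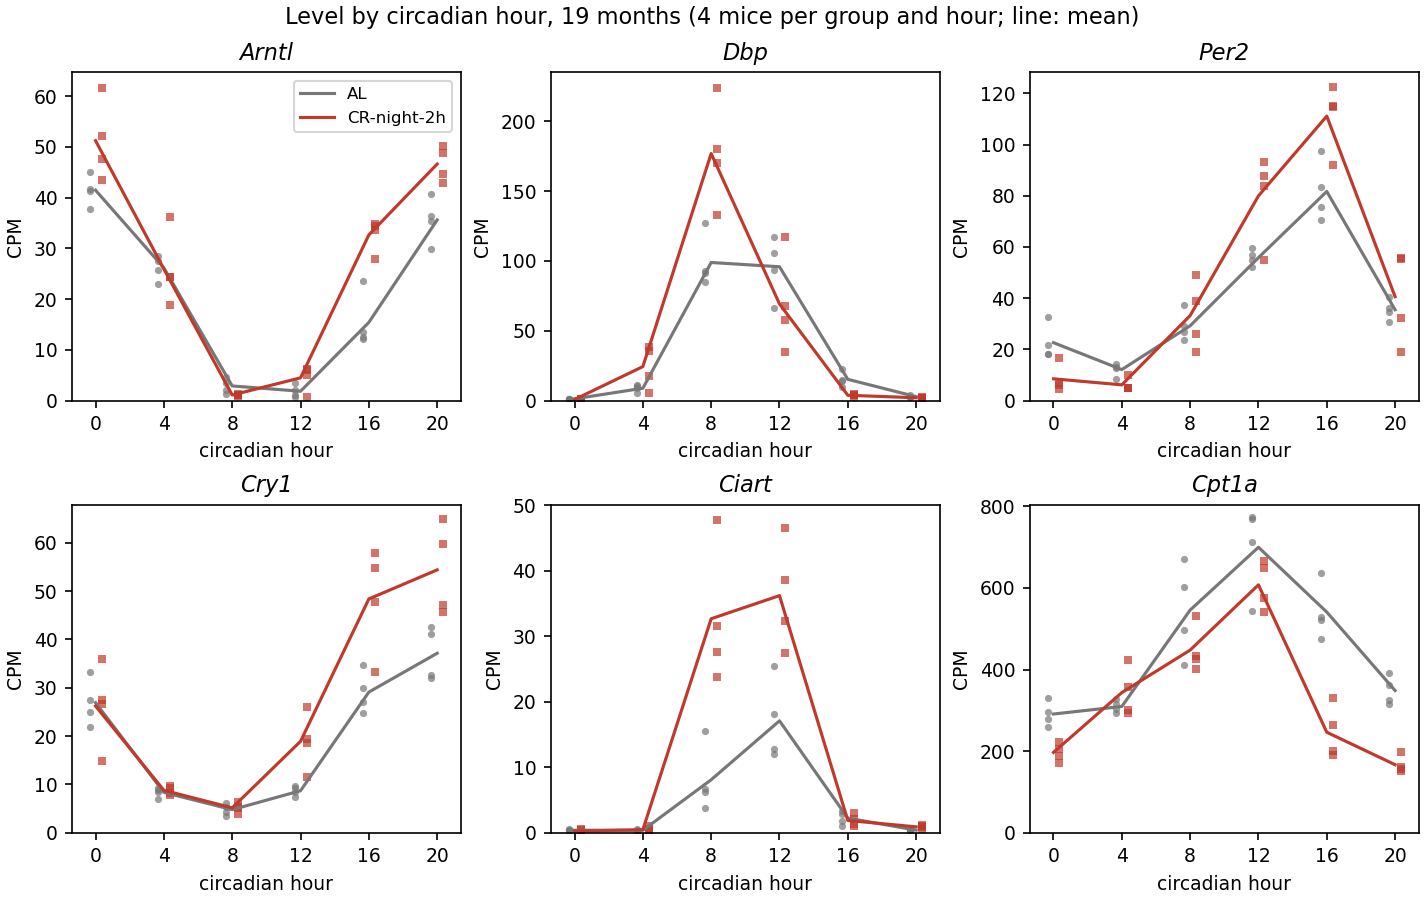
CPM of 5 clock genes and Cpt1a by circadian hour at 19 months, points for the 4 mice per group and hour and lines for their means. Arntl, Per2, Cry1 and Ciart reached higher means in CR-night-2h than in AL (51.2 against 41.5, 111 against 81.7, 54.4 against 37.1 and 36.2 against 17.1 CPM), and Cpt1a was lower in CR-night-2h at hours 16 and 20.

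A daily rhythm was called where a cosine of 24 h passed edgeR's test (padj under 0.05) with a fitted log2 peak-to-trough of at least 0.3. By this rule 4015 genes (34.3%) were rhythmic in AL and 3591 (30.7%) in CR-night-2h, or 4083 in CR-night-2h without 16B and 28B. Of the 2083 genes rhythmic in both, 1801 (86.5%) had fitted phases within 3 h, the median phase of CR-night-2h was earlier by 0.94 h, and 1699 (81.6%) had the larger peak-to-trough in CR-night-2h, with medians of 0.63 in AL and 0.83 in CR-night-2h. These genes had to pass the rule in both groups, and mice of an hour lay farther apart in CR-night-2h (0.557 against 0.465 in AL). What part this selection has in the larger peak-to-trough was not tested. A test of the rhythms themselves called 114 genes (0.974%) as different in amplitude or phase, and 184 without the pair, of which 108 were among the 114. The 6 genes with the smallest p were Ethe1, Rtp3, Eci2, Adprh, Dbp and Cpt1a. Dbp, a transcription factor driven by the clock, averaged 1.26, 8.84, 98.9, 95.8, 15.2 and 2.81 CPM over the circadian hours in AL and 0.761, 24.3, 177, 69.2, 3.81 and 2.03 CPM in CR-night-2h. Its phase in CR-night-2h differed by -1.36 h (95% interval -2.0 to -0.72) from AL. Cpt1a, the gate of fatty acids into mitochondria, shifted by -2.86 h (95% interval -3.81 to -1.91) and was lower in CR-night-2h at hours 16 and 20 (log2FC = -1.13 and -1.06, padj = 8.23e-06 and 2.06e-05).

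Eci2, an auxiliary enzyme of unsaturated fatty acid oxidation, averaged 102, 96.3, 127, 159.9, 160.2 and 116 CPM in AL and 101, 164, 233, 296, 162 and 121 CPM in CR-night-2h, with a phase difference of -3.28 h (95% interval -4.49 to -2.07). Ethe1, a mitochondrial enzyme of sulfide oxidation, had a log2 peak-to-trough of 0.46 ± 0.13 SE in AL and 1.75 ± 0.18 SE in CR-night-2h, the CR-night-2h means running from 15.6 CPM at hour 12 to 57.6 CPM at hour 20. Among 13 clock outputs all were rhythmic in both groups and Noct, a phosphatase related to the deadenylases, alone fell in the mean (log2FC = -0.99 ± 0.20 SE, padj = 0.000114). Noct was lower in CR-night-2h at hours 0, 4, 16 and 20, and at hour 12 it averaged 113 against 68.5 CPM (padj = 0.137).

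At 6 months the same feeding contrast looked different. The interaction of feeding with age, CR-night-2h over AL at 19 months against the same ratio at 6 months, was called for 2095 of 11951 genes (17.5%), 621 with a higher and 1474 with a lower ratio at 19 months; without 16B and 28B it was called for 2481. At 6 months 499 genes were called higher and 300 lower in CR-night-2h. Of the 1302 genes called at 19 months, 967 had an interaction with age, 133 were called in the same direction at 6 months and 123 in the opposite one. Both ages' ratios enter the interaction, so it does not say at which age a level moved, and the depth of the restriction, which differed with age, cannot be told apart from age. Cidec had medians of 0.752 CPM in AL and 0.662 CPM in CR-night-2h at 6 months, and 35.4 and 0.975 CPM at 19 months (interaction -6.24 ± 0.64 SE, padj = 6.47e-13). In CR-night-2h at 6 months 2 mice, 8A and 12A, reached 48.4 and 37.9 CPM, above the AL median of 19 months, and the other 22 did not exceed 4.14 CPM. Cd36 had medians of 15.1 and 38 CPM at 6 months and 254 and 42.8 CPM at 19 months (interaction -3.73 ± 0.34 SE, padj = 3.39e-15), CR-night-2h having the higher median at 6 months and the lower one at 19. Lgals1 (-2.84 ± 0.27 SE, padj = 2.79e-14) and Ly6d (-5.96 ± 0.81 SE, padj = 5.68e-09) also had a lower ratio at 19 months, and the values for Cidea and Gprc5b were -7.76 ± 2.59 SE, padj = 0.0108 and -6.16 ± 0.50 SE, padj = 3.53e-17. The median of Cidea in CR-night-2h was 0 CPM at both ages, so its fitted interaction depends on the prior count.

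At 6 months all 22 tested male-biased genes were called lower in CR-night-2h, where 2.51% of all tested genes were (median log2 ratio -3.69) and 15 of 16 tested female-biased genes were called higher, against 4.18% of all tested genes (median 3.49); at 19 months the medians were 0.07 and 0.28. Hsd3b5 had 85.3 to 289.8 CPM (median 184) in AL and 0 to 81.8 CPM (median 0.947) in CR-night-2h at 6 months, and 0 to 70.8 CPM (median 0.345) in AL and 0.0844 to 207 CPM (median 15.3) in CR-night-2h at 19 months (interaction 6.81 ± 0.94 SE, padj = 9.17e-09). The AL level at 19 months was near the CR-night-2h level of 6 months. Serpina1e, a male-biased antitrypsin gene, had medians of 3620.5 and 42.9 CPM at 6 months and 41.4 and 138 CPM at 19 months (interaction 6.69 ± 0.81 SE, padj = 1.47e-10), and Mup7 gave 6.77 ± 0.99 SE, padj = 4.32e-08. Mup17 was lower in CR-night-2h at both ages, with medians of 354 and 1.05 CPM at 6 months (interaction 2.40 ± 0.70 SE, padj = 0.00358). Of the female-biased cytochromes, Cyp2b9 had 0 to 9.1 CPM (median 0.547) in AL and 7.33 to 816 CPM (median 484) in CR-night-2h at 6 months, but medians of 169 and 213 CPM at 19 months (interaction -7.53 ± 0.70 SE, padj = 1.09e-14), and Cyp2a22 gave -6.26 ± 0.52 SE, padj = 1.11e-16. Cyp2b9, Cyp2a22, Mup7 and Serpina1e have close paralogs, so reads may be split among copies.

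**Figure D5:**
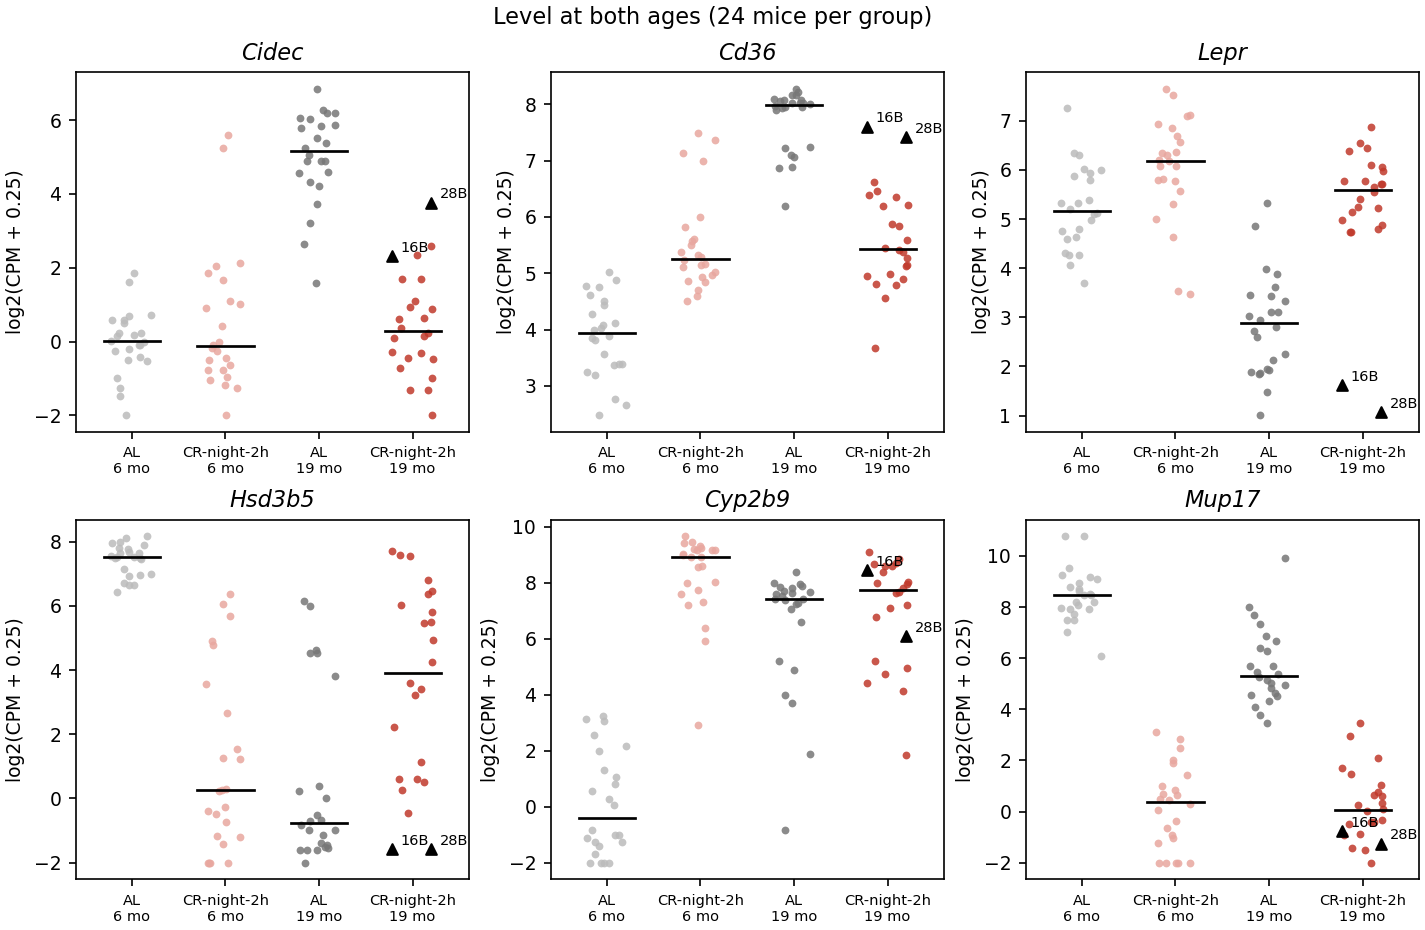
Level of 6 genes at 6 and 19 months as log2(CPM + 0.25), 24 mice per group, with the group median as a line; black triangles mark libraries 16B and 28B. Cidec had a median of 35.4 CPM in AL at 19 months against 0.752, 0.662 and 0.975 in the other groups, with 2 CR-night-2h mice of 6 months at 37.9 and 48.4 CPM, and Hsd3b5 was high in all AL mice at 6 months (lowest 85.3 CPM) and spread from near 0 to 207 CPM in CR-night-2h at 19 months.

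CR-night-2h was also set against the other CR groups of 19 months. Against the mean of the 4 other CR groups (night 12 h, day 2 h, day 12 h and spread; 96 libraries), 8 genes were higher and 6 lower of 12158 tested (0.115% called), but without 16B and 28B 27 were higher and 88 lower. Gpx6, a glutathione peroxidase, was higher (log2 difference 1.62 ± 0.19 SE, padj = 1.35e-10), with medians of 4.6 CPM in CR-night-2h and 4.18 CPM in CR-night-12h, against 0.848, 0.827 and 1.3 CPM in CR-day-2h, CR-day-12h and CR-spread. G6pdx, the first enzyme of the pentose phosphate pathway, was higher than the mean of the 4 (log2 difference 0.79 ± 0.17 SE, padj = 0.00807), with medians of 17.9 CPM in CR-night-2h and 18.8 CPM in CR-night-12h, against 9.77, 10.6 and 10.5 CPM in the other 3. Also higher were Adcy1 (log2 difference 1.33 ± 0.30 SE, padj = 0.016) and Kcnk10 (log2 difference 0.93 ± 0.20 SE, padj = 0.00807). Rcan2, a regulator of calcineurin, was lower (log2 difference -0.69 ± 0.13 SE, padj = 0.00131), at a median of 7.63 CPM against 10.1 to 16.9 CPM over the 4 groups. The bile acid transporter gene Slc10a2 was lower than the mean of the 4 (log2 difference -0.90 ± 0.22 SE, padj = 0.0392), but its median of 12.5 CPM was close to the 13.1, 15.9 and 13.9 CPM of CR-night-12h, CR-day-2h and CR-day-12h, and CR-spread stood apart at 34 CPM. Fam19a2 (log2 difference -1.32 ± 0.26 SE, padj = 0.00179) and Serpinb1a (log2 difference -0.88 ± 0.22 SE, padj = 0.032) were lower too.

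The distance between mice A and B of an hour, as the root mean square difference in log2 CPM over the 11700 genes, was 0.465 ± 0.057 (SD, n = 12 hours) in AL and 0.557 ± 0.144 in CR-night-2h. The difference of 0.092 had a two-sided exact p of 0.0269 by sign flips over the hours, with the smaller distance in CR-night-2h at 4 of 12 hours. At hours 16 and 28 the CR-night-2h distances were 0.786 and 0.890, and without these 2 hours the difference was 0.043 (exact permutation p = 0.107).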

How the data were processed

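The deposited tables hold raw counts per gene, 1 table per group, made by the authors from polyA-selected TruSeq libraries with 288 libraries in all. The submitters' processing notes name FastQC, cutadapt, STAR and featureCounts without versions, with build and annotation not given in the sources used here. Coordinates are printed only where a gene's versioned identifier matched GENCODE M21 (GRCm38), as 83.7% of identifiers did. Promoters are from RefSeq (GRCm38.p6).

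Counts of 24 AL and 24 CR-night-2h libraries were scaled by TMM, filtered with filterByExpr and tested with edgeR 4.0.16 (quasi-likelihood F test, R 4.3.3), with hour (12 levels) as a term, at padj under 0.05 and a fold change of at least 1.5. Time of day was tested as an interaction of feeding with 6 circadian hours, and rhythms as cosine and sine terms of 24 h. The age interaction was fitted on 96 libraries and the contrast with other CR groups on 144, each with TMM factors of its own, so that CPM values differ slightly between these fits. The SE of each edgeR log2 value was computed back as its size over the square root of its F, and was not estimated on its own. Phase and peak-to-trough intervals are from least squares on log2 CPM. Scripts were tested on simulated data. No columns were left unmapped.

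The strand setting of the counting is likewise unstated, so antisense and overlapping genes may share reads. With 6078926 to 12585106 counts per library, intervals on counts cover counting error only. A and B are separate mice. No column of the authors' own comparisons was used.

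The gene lists and the members were chosen with earlier results of these data known. Genes were named by rule: the 10 that rose and the 10 that fell most among called genes that averaged 1 CPM or more in a group and had the same direction in A, B and both cycles; per list, the 4 genes of smallest p; all clock genes; the 8 and 6 genes with the smallest p for time of day and rhythm; and the 5 largest in each direction for age and for the other CR groups. Not all of them are described, and some genes are not reported here. Chosen after their values were seen were Acot1, Acot2, Acot3, Bhmt, Cish, the Cyp4a genes, Cyp8b1, Dgat1, Dgat2, Fabp5, Fga, Fgb, Fgf21, Fgg, Gpam, Gpat3, Igf1, Lpl, Mup3, Mup21, Pck1, Plin2, Plin4, Pnpla2, Rsad2, Sds, Slc10a1, Socs2, Tat, Thrsp and Trib3, and leaving out 16B and 28B was also chosen after seeing the data.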

Additional observations from a re-analysis of the deposited data

Results flagged for a closer look

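The effect of CR-night-2h differed between 19 and 6 months for 2095 genes in the edgeR interaction test. For the 12 genes whose age interaction is described, the log2 ratio of effects was -7.76 for Cidea, -7.53 for Cyp2b9, -6.26 for Cyp2a22, -6.24 for Cidec, -6.16 for Gprc5b, -5.96 for Ly6d, -3.73 for Cd36 and -2.84 for Lgals1. It was 6.81 for Hsd3b5, 6.77 for Mup7, 6.69 for Serpina1e and 2.40 for Mup17.

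Single mice far from the other 3 of their group and circadian hour were found in 8 of 144 groups of 4, over the 12 genes whose hourly means are described or were drawn; chance alone flags about 1 group in 20. In AL, Arntl was 23.5 CPM in 40B at hour 16 against 12.2 to 13.4 CPM in the others. Alas1 was 164 CPM in 8A at hour 8 against 331 to 365 CPM, and Eci2 was 195 CPM in 36B at hour 12 against 145 to 152 CPM. In CR-night-2h, Arntl was 27.9 CPM in 16B at hour 16 against 33.6 to 34.7 CPM, and Eci2 was 374 CPM in 12B at hour 12 against 263 to 277 CPM. At hour 4 Per2 was 9.85 CPM in 28A against 4.74 to 5.04 CPM, while 28B held 6.86 CPM of Noct against 3.57 to 3.73 CPM and 638 CPM of Actb against 451 to 463 CPM. Library 16B or 28B was the distant mouse in 3 of the 8.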

How the results depend on the processing

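The count of 1302 genes differing in the mean was 2138 with no filter on expression, and 659 to 1755 with 1 replicate letter left out. With 1 letter left out the time-dependent count was 1 to 2, the rhythmic genes 820 to 2383 in AL and 528 to 1936 in CR-night-2h, the rhythm differences 0 to 2, and the genes differing from the other CR groups 7 to 19; these fits hold fewer libraries. Without 16B and 28B the rhythm differences were 184, the genes differing from the other CR groups 115, and the calls at circadian hours 4 and 16 were 941 and 533. DESeq2 1.42.0 called 1341 genes in the mean. The distance between mice differed by 0.0566 over genes of at least 10 CPM (exact permutation p = 0.085) and by 0.0434 without hours 16 and 28 (exact permutation p = 0.107). Across genes, the A minus B difference of AL correlated with that of CR-night-2h at the same hour at -0.18 to 0.29, over 0.1 at 3 of 12 hours. This compares the letters between groups and says nothing of a difference between the letters within a group. In AL the A library held more counts than the B library at every hour, for instance 11228889 against 6541974 at hour 28. What the letters mark was not tested. With the letter as a replicate block the counts were 1306, 661, 4136, 3665, 106, 2091 and 19 for the mean, time of day, rhythm in AL, rhythm in CR-night-2h, rhythm difference, age and other CR groups. Over the 151 genes with a mean log2FC described and the 14 alternatives, 1921 of 2101 values kept direction and side of the threshold, 153 lost the call and 10 gained it. The lost calls were uneven: 63 of 148 values lost the call without letter A and 7 of 148 without letter B. With hours 24 to 44 only, 38 of 145 lost it. A further 17 values changed sign, all of 7 clock genes or Rsad2, none of them called in the main test. Leaving out 1 letter gave log2FC of -0.373 to 0.0458 for Bhlhe40, -0.124 to 0.0815 for Clock, -0.184 to 0.224 for Npas2, -0.127 to 0.347 for Nr1d2, -0.319 to 0.0347 for Per2 and -0.081 to 0.352 for Per3. Without 16B and 28B Bhlhe41 was 0.014 and Npas2 -0.0426; without 16B alone they were 0.0201 and -0.035, and without 28B alone Clock was 0.000933. With hours 0 to 20 only Clock was 0.0667 and Npas2 -0.176. With no hour term Npas2, Per2 and Rsad2 were -0.134, 0.237 and 0.171, and in 1 fit of all 12 groups Npas2 was -0.0186. The cause of these changes was not tested. The 12 age interactions described kept their direction and call in 72 of 72 values.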
